A study of Homo sapiens with 6 samples.

Results

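The genes described here encode the proteins of the cytosolic ribosome, in RNA that the J2 antibody, which binds double-stranded RNA, precipitated from OCI-AML2 cells. They were chosen by name, with earlier results of these data known, as RPL and RPS symbols for the large and small subunit. In the deposited expression table this gave 85 of 60675 genes, 52 for the large and 33 for the small subunit. Of these, 77 are the standard proteins of the ribosome (46 large, 31 small), and 8 are paralogs whose symbols end in L or L1. GENCODE 29 annotates 1 of the 8, RPS10L, as a processed pseudogene with no coding sequence. OCI-AML2 is an established human acute myeloid leukaemia line. In all 6 libraries the cells had been transduced with a short hairpin RNA. Its target was PNPT1 in 3 libraries and SUPV3L1, also called SUV3, in the other 3, and the series describes each set of 3 as biological replicates. The labels do not tell if the 3 libraries with 1 target used the same hairpin. No untreated cells, no cells with a control hairpin and no RNA taken before precipitation were analysed here, so each comparison is SUPV3L1 knockdown against PNPT1 knockdown, and a transcript's amount in the cell cannot be told apart from how readily J2 bound it. In such bulk samples, fewer cells with a transcript and less of it per cell cannot be told apart either.

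A ribosome holds 1 copy of nearly every one of these proteins, and the cell makes them in matched amounts from short, very abundant mRNAs. Most of those mRNAs begin with a C followed by a run of C and T, the terminal oligopyrimidine (TOP) start, through which mTOR and the binding protein LARP1 set how strongly they are translated. Fast-growing leukaemia cells make ribosomes at a high rate. PNPT1 and SUPV3L1 act elsewhere: the first is a 3′ to 5′ exoribonuclease and the second an RNA helicase, and together they degrade RNA in mitochondria, whose own ribosomes use a separate set of proteins.

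The RefSeq table of start sites (GRCh38.p14) held 67 of the 85 genes. A C at the annotated start that was followed by at least 4 bases, each C or T, on the gene's strand, was present in 43 of these 67 (64.2%) and in 4.07% of all 35116 start sites in the table. Allowing the run to begin up to 5 bases to either side, it was present in 50 of 62 standard genes (80.6%), in 1 of 5 paralogs and in 21.1% of all start sites. The windows below run from 15 bases before the start to 15 bases from it, with the run in capitals. The first 4 belong to genes among the 6 with the smallest p-values in the knockdown comparison, and the next 3 have the run and were among the 6 genes with the lowest fold in the third PNPT1 knockdown library, which stood apart. The next 3 lack it and were also among those 6, and the last 2 are the gene with the highest fold there and the paralog with the run.
RPS23: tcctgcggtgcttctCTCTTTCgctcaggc
RPSA: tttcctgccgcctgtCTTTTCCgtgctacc
RPL39: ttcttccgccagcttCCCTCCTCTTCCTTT
RPL34: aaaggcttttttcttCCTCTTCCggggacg
RPS18: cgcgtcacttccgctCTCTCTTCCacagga
RPL41: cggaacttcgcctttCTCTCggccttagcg
RPL36A: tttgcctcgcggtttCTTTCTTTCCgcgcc
RPS27A: taaggagtgacacacaagacccagactctt
RPS27L: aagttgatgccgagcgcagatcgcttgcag
RPL7L1: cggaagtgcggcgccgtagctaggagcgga
RPL17: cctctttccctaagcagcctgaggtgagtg
RPL22L1: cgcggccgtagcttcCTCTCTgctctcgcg
On GRCh38 these windows lie at chr5:82278340-82278369 on the minus strand for RPS23, chr3:39406705-39406734 on the plus strand for RPSA, chrX:119791616-119791645 on the minus strand for RPL39, and chr4:108620561-108620590 on the plus strand for RPL34. RPS18 is at chr6:33272060-33272089, RPL41 at chr12:56116618-56116647, RPL36A at chrX:101390996-101391025, RPS27A at chr2:55231888-55231917 and RPL7L1 at chr6:42879601-42879630, all on the plus strand. RPS27L is at chr15:63157463-63157492, RPL17 at chr18:49492451-49492480 and RPL22L1 at chr3:170870181-170870210, all on the minus strand. A match shows only the letters at the annotated start, and a gene's start in these cells was not measured.

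Counts assigned to genes ranged from 5852090 to 11361371 per library. The libraries are called PNPT1 replicates 1 to 3 (titled IP_ed_PNPT1_545, IP_ed_PNPT1_1717 and IP_ed_PNPT1_1979) and SUPV3L1 replicates 1 to 3 (titled IP_ed_SUV3_566, IP_ed_SUV3_1595 and IP_ed_SUV3_1727). PNPT1 replicate 3 stood apart: it had the fewest counts and genes (16620, against up to 22393), the lowest share of mitochondrial counts (11.3%, against up to 42.0%), and the highest shares of a set of genes named after genomic clones (37.7%, against 10.9% at the lowest) and of alignments that were not unique (80.1%, against 65.7% at the lowest). The fold changes of the members are therefore given with and without it. PNPT1 itself was at 7.66, 18.9 and 17.1 CPM (counts relative to the TMM-scaled library size) in its knockdown and at 36.3, 27.6 and 21.4 in the other group, without overlap, while SUPV3L1 was at 11.5, 18.2 and 25.8 in PNPT1 knockdown and at 12.2, 12.3 and 9.42 in its own, which overlap. Among 12 myeloid leukaemia markers, 9 passed the filter on low counts, CD34 was at 0 in all libraries, and ANPEP and KIT had at most 8 and 5 counts. The list summed to 1220 to 2400 CPM. Of this, LYZ made up 36.6 to 180 CPM in PNPT1 knockdown and 344 to 1493 in SUPV3L1 knockdown. In the other lists, 4 of 4 erythroid markers were at 0, and T cell, B cell, epithelial and fibroblast markers summed to at most 1.52 CPM in any library.

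Ribosomal protein genes made up 5.27%, 3.41% and 7.16% of assigned counts in PNPT1 replicates 1, 2 and 3, and 3.95%, 4.03% and 2.99% in SUPV3L1 replicates 1, 2 and 3. The group means were 5.28% ± 1.88 and 3.65% ± 0.578 (SD, n = 3 each), and SUPV3L1 minus PNPT1 knockdown was −1.63 percentage points, with overlapping groups, and −0.686 points without PNPT1 replicate 3. Counting error was small beside this, with a Wilson 95% interval of 7.14% to 7.18% for PNPT1 replicate 3, and covers counting only. The excess of PNPT1 replicate 3 depended on the measure. Its share was 1.82 times the mean of the other 5 libraries as counts, and 2.98 times when the same counts were summed as TMM-scaled CPM (107273, against 30343 to 43804), because the TMM factor of that library was 0.669. In FPKM, the authors' fragment values per kilobase and per depth, the genes summed to 22032 in PNPT1 replicate 3 and to 9875 to 17230 in the others, yet that was 0.743% of its total FPKM, inside the 0.582% to 0.991% of the other 5.

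In counts, the subunits kept close proportions. Summed counts of large subunit genes were 1.49, 1.54 and 1.65 times those of small subunit genes in the PNPT1 knockdown libraries and 1.60, 1.56 and 1.45 times in the SUPV3L1 knockdown libraries, with means of 1.56 ± 0.0824 and 1.54 ± 0.0776 (SD, n = 3 each). The difference of the means (SUPV3L1 minus PNPT1 knockdown), −0.0228, was smaller in size than either SD. PNPT1 replicate 3 had the highest ratio and SUPV3L1 replicate 3 the lowest, and both lay close to the others. In summed FPKM the ratio was 1.39 in PNPT1 replicate 3, outside the 1.13 to 1.25 of the other 5 libraries. The proportions among the members were also alike between libraries: across the 82 genes that passed the filter on low counts (50 large, 32 small), Pearson's r of log2 CPM was 0.978 to 0.994 between pairs of the other 5 libraries and 0.927 to 0.954 between PNPT1 replicate 3 and each of them (genes are not independent replicates, and all pairs share the same range of levels). Over all 13275 genes tested, r was 0.904 to 0.973 and 0.850 to 0.897. High values and the drop in PNPT1 replicate 3 were thus not particular to the members.

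**Figure D1:**
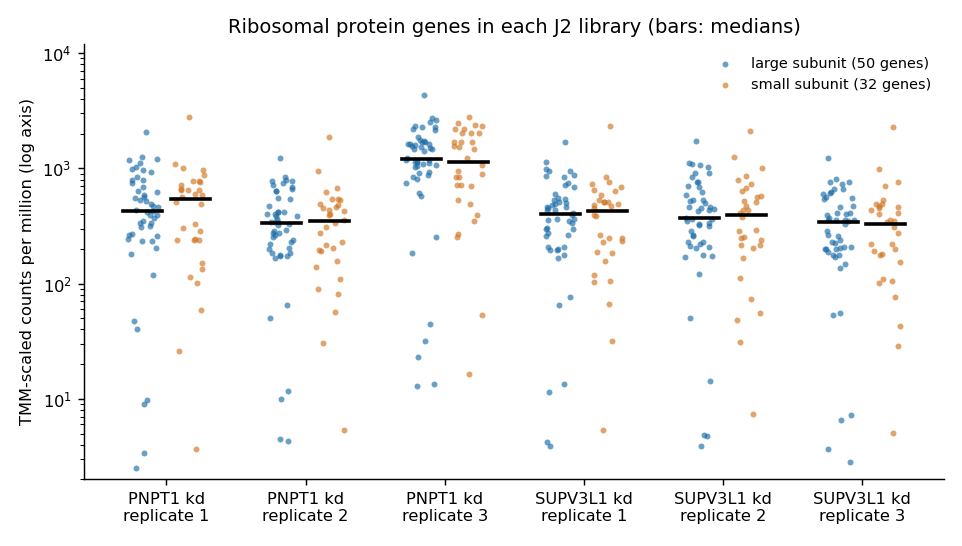
TMM-scaled CPM (log axis) of each ribosomal protein gene that passed the filter, by library, with large subunit genes in blue, small subunit genes in orange and black bars at the medians. The median over all members was 468, 337 and 1206 CPM in PNPT1 replicates 1 to 3 and 403, 377 and 339 in SUPV3L1 replicates 1 to 3, and both subunits sit high in PNPT1 replicate 3.

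Per length, the most abundant transcript was RPS18, which encodes a protein of the small subunit's head. It was at 1410, 891 and 749 FPKM in PNPT1 knockdown and at 1047, 938 and 965 FPKM in SUPV3L1 knockdown. The lowest and the highest of these values were both in PNPT1 knockdown, around the narrower range of the other group. RPL41, whose protein is the shortest of the ribosome, followed with 1115, 674 and 886 against 782, 615 and 595 FPKM. Among the next levels were RPS12 with a mean over the 6 libraries of 639 FPKM, RPL7 with 511, RPL13A with 489, RPS27 with 409, RPS2 with 402, and RPL11 and RPL8 with 357 each. Within RPS12 the libraries ran from 405 to 982 FPKM and within RPL13A from 297 to 739 FPKM, so neighbours in this order did not differ beyond the spread between libraries. The standard gene with the lowest mean FPKM was RPS29, at 10.97, and the median over the 77 standard genes was 131 FPKM. RPS29 was not the lowest in counts: its mean was 1120, against 949 for RPS21, which was at 82.8 FPKM. The annotated exons of RPS29 cover 9845 bases, while its reference mRNA has 296, so its FPKM is no measure of abundance against other genes. This limit reaches other members. RPS24 was at a mean of 160 FPKM on 9090 counts, with exons of 7857 bases and a reference mRNA of 634. RPS12 was at 639 FPKM on 6265 counts, with 767 and 631 bases. The order by FPKM above can therefore differ from the order by transcript number.

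In the comparison of SUPV3L1 with PNPT1 knockdown, 0 of 82 members passed an adjusted p of 0.05 in edgeR's quasi-likelihood test (0% of all 13275 genes tested; the smallest adjusted p was 0.898). DESeq2 called 0 of the 83 members to which it gave an adjusted p, against 0.108% of 17661 genes. The point estimates nevertheless lay almost all on one side: 81 of 82 members had a log2 fold change below 0, that is lower in SUPV3L1 knockdown, against 49.3% of all genes tested. Their median was −0.88 (large −0.89, small −0.87) against 0.01 over all genes. Without PNPT1 replicate 3 the median was −0.10, 63 of 82 were below 0 against 49.1% of all genes, the absolute fold change was smaller for 81 of 82, and 18 members had the opposite sign. Standard errors narrowed from a median of 0.51 to 0.29. An unadjusted edgeR p under 0.05, with lower values in SUPV3L1 knockdown, was reached by 6 members against 2.39% of all genes, and without PNPT1 replicate 3 by 0 members, in either direction, against 2.61% of all genes. Members lower in SUPV3L1 knockdown at that p numbered 55 of 82 without PNPT1 replicate 2, where 7.89% of all genes did so, and 20 of 82 without PNPT1 replicate 1, against 2.93% of all genes. Without SUPV3L1 replicate 1, 2 or 3 the count was 0 in either direction, against 1.58%, 3.44% and 3.11% of all genes. With all 6 libraries it was 23 of 84 members in DESeq2 (lower in SUPV3L1 knockdown, against 1.86% of all genes) and 42 of 84 in edgeR without a filter on low counts (against 2.69%). Members whose groups did not overlap, with SUPV3L1 knockdown lower, numbered 1 of 82 against 3.94% of all genes.

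**Figure D2:**
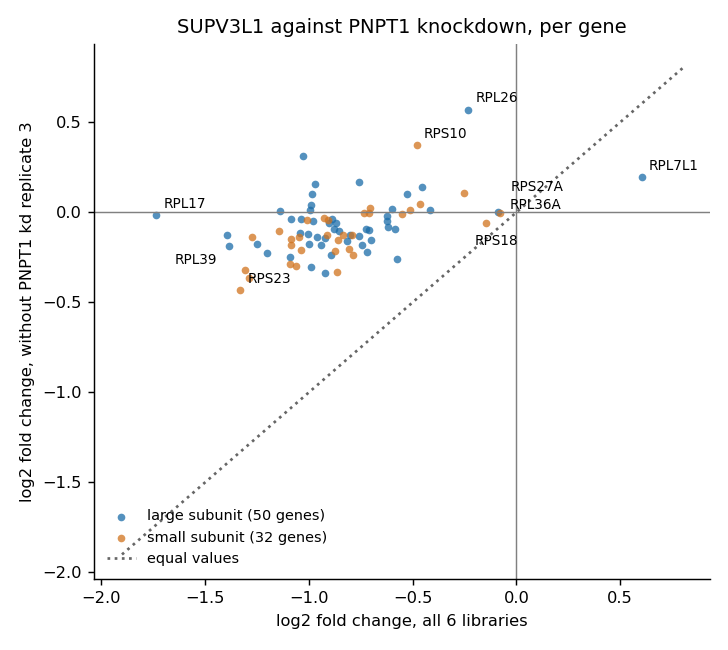
Log2 fold change of each ribosomal protein gene (SUPV3L1 over PNPT1 knockdown) with all 6 libraries on the x axis and without PNPT1 replicate 3 on the y axis, large subunit in blue, small subunit in orange, and a dotted line where the values are equal. The points lie left of 0 with all libraries, at a median of −0.88, and gather around 0 without PNPT1 replicate 3, between −0.43 and 0.57.

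RPS23, a protein at the decoding centre of the small subunit, had the smallest p of the members. Its levels were 759, 456 and 2207 CPM in PNPT1 knockdown, a mean of 1141 ± 936 (SD, n = 3), and 509, 439 and 411 CPM in SUPV3L1 knockdown, a mean of 453 ± 50.3. PNPT1 replicate 3 was high, PNPT1 replicate 1 came next, and PNPT1 replicate 2 lay within the range of the other group. The log2 fold change was −1.33 with a standard error of 0.56 (edgeR, unadjusted p = 0.0382, adjusted p = 0.898), and −0.43 with a standard error of 0.31 without PNPT1 replicate 3 (unadjusted p = 0.198). Across the members RPS23 thus had the lowest value left once that library was taken out.

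The same shape held for other members with small p-values. RPSA, a small subunit protein also known as the laminin receptor, was at 564, 335 and 1679.8 CPM against 398, 382 and 277. RPL39, which lines the exit tunnel for the new protein chain, was at 265, 175 and 1087 CPM against 209, 174 and 201. In both genes PNPT1 replicate 3 was far above every other library, and the other 2 PNPT1 knockdown libraries lay among or above the SUPV3L1 knockdown values. RPL34, of the large subunit, was at 268, 166 and 1145 CPM against 199, 202 and 199, with a narrow SUPV3L1 group. RPS15A, of the small subunit, was at 59.0, 56.7 and 269 CPM against 66.6, 48.7 and 43.2. Log2 fold changes of these 4 genes ran from −1.40 to −1.27 with all libraries and from −0.36 to −0.13 without PNPT1 replicate 3. RPL36, of the large subunit, was the member whose groups did not overlap: 181, 184 and 608 CPM against 177, 171 and 138, a log2 fold change of −1.001 and of −0.18 without PNPT1 replicate 3.

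Members known from disease or signalling were also highest in PNPT1 replicate 3. RPL5 and RPL11 join 5S rRNA in the particle that can inhibit MDM2 and so stabilise p53. RPL5 was at 415, 330.0 and 1468 CPM against 346, 427 and 189, low in SUPV3L1 replicate 3. RPL11 was at 991, 657 and 1854 against 753, 849.6 and 735, with no such dip. RPS14, lost in the 5q deletion of myelodysplastic syndrome, was at 713, 541 and 1486 CPM against 593, 507 and 405. RPS19, the gene most often mutated in Diamond-Blackfan anaemia, was at 305, 273 and 948 CPM against 233, 284 and 198. Each of the 4 was highest in PNPT1 replicate 3 and overlapped between the groups in the other libraries.

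RPL22, which is deleted in some T cell leukaemias, was at 232, 172 and 579.6 CPM against 168, 179 and 149. RPL10, which is mutated in others, was at 790.4, 537 and 1679 against 529, 589 and 468. The X-linked small subunit gene RPS4X was at 511, 308 and 1548 against 389.6, 414 and 312. Unadjusted edgeR p-values for these 7 genes were 0.0532 (RPS19) to 0.228 (RPL11) with all libraries and 0.277 (RPL22) to 0.768 (RPL11) without PNPT1 replicate 3.

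PNPT1 replicate 3 had the highest CPM of the 6 libraries for 80 of the 82 members, and the highest FPKM for 74. Its CPM was a median of 3.27 times the mean of the other 5 (3.33 for large and 3.09 for small subunit genes), against 0.884 over all genes tested. It reached 2-fold or more for 76 of 82 members, against 14.1% of all genes, 3-fold for 48 and 4-fold for 19. It was lower by 2-fold or more for 1 member, against 27.8% of all genes. In FPKM the median fold was 1.96. Among the other 5 libraries, a member's highest value was a median of 1.56 times its lowest (1.08 for RPS28 to 2.75 for RPL39L), and the lowest CPM of all 6 libraries lay in SUPV3L1 replicate 3 for 47 members and in PNPT1 replicate 2 for 21. The part that the depth and content of PNPT1 replicate 3 play in these folds was not tested. For the counts at 3-fold and 4-fold, and for the members highest or lowest in a library, the share of all genes is not given here. Those counts alone therefore do not set the members apart from other genes.

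**Figure D3:**
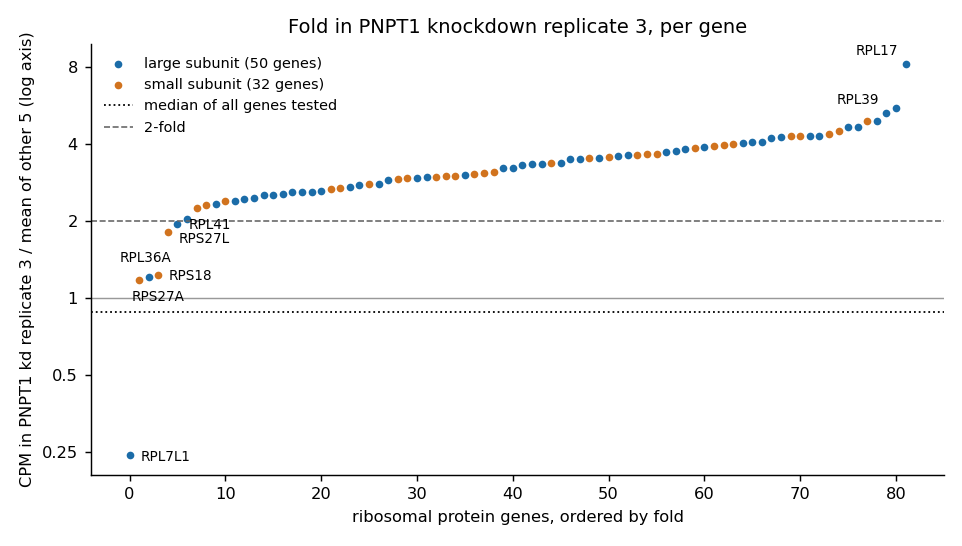
Fold of PNPT1 replicate 3 over the mean of the other 5 libraries in TMM-scaled CPM (log axis) for each ribosomal protein gene, in rising order, with a dashed line at 2-fold and a dotted line at the median of all genes tested, 0.884. The members run from 0.243 for RPL7L1 to 8.26 for RPL17, and 6 lie under the dashed line.

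The 6 members under 2-fold in PNPT1 replicate 3 were named because of these values, which are given as a description. RPS27A, made as a fusion of ubiquitin with a small subunit protein, was at 875, 627 and 889 CPM against 693, 866 and 707, a fold of 1.18. RPS18 was at 2778, 1886 and 2809 CPM against 2341, 2110.0 and 2299, a fold of 1.23. In CPM PNPT1 replicate 3 was narrowly the highest library for both genes, close to PNPT1 replicate 1 and, for RPS27A, to SUPV3L1 replicate 2. In FPKM the order was the opposite, and PNPT1 replicate 3 was the lowest library for both. RPS27A was at 144 FPKM there, against 179 to 276 in the others, and RPS18 at 749, against 891 to 1410. RPL41 was at 1182, 775 and 1724 CPM against 941, 769 and 759.8, a fold of 1.95, just inside the limit, and the member next above it was RPL13 with a fold of 2.04. RPL36A had a fold of 1.21 in CPM on 51 to 153 counts per library. The other 2 were the paralogs RPS27L, with a fold of 1.80, and RPL7L1, with a fold of 0.243. FAU, which makes a small subunit protein fused to a ubiquitin-like one and lies outside the name rule, had a fold of 2.48.

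Standard genes with and without the run near the annotated start had overlapping folds in PNPT1 replicate 3. The 50 standard genes with the run near the annotated start had a median fold of 3.33 (1.21 to 5.54), and the 12 without it one of 2.83 (1.18 to 8.26). RPS18, RPL41 and RPL36A carry the run in the windows above and were under 2-fold, and RPL17 lacks it there and had the highest fold. That fold rests on 26 to 123 counts a library and was 2.49 in FPKM. Runs further from the annotated start were not counted, such as the one upstream in the RPL17 window. A gene counted as without the run can therefore still have a TOP start, and the split does not compare TOP with other mRNAs.

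RPL17 and a few other members have a limit of their own, since their exons are also annotated to another gene on the same strand. GENCODE 29 assigns 98.2% of the coding bases of RPL17 to RPL17-C18orf32 as well, 67.3% of those of RPL36A to RPL36A-HNRNPH2 and 56.9% of those of RPS10 to RPS10-NUDT3, genes that join the transcript to that of the next gene. RPL26 and RPL22 also share more than 50% of their coding bases, RPS15A 36.9% and RPS2 9.5%. RPL17 was at 34, 49 and 123 counts in PNPT1 knockdown and at 47, 50 and 26 in SUPV3L1 knockdown, yet at 202, 123 and 343 against 126, 134 and 103 FPKM. RPS10 was at 37, 62 and 64 counts against 65, 78 and 47, and at 331, 212 and 470 FPKM against 224, 208 and 218. The 3 joined genes had 0 counts in all 6 libraries, but not 0 FPKM throughout. RPL36A-HNRNPH2 was at 12.8 to 33.2 FPKM, RPL17-C18orf32 at 0 to 5.13 and RPS10-NUDT3 at 0 to 0.522. RPL17, RPL36A and RPS10 were thus within the range of the set in FPKM and low in counts, and their fold changes in counts rest on few reads.

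The direction of RPL26, of the large subunit, differed with the libraries used. It was at 47.4, 65.6 and 185 CPM against 76.1, 121 and 55.7, a log2 fold change of −0.23 that became 0.57 without PNPT1 replicate 3, the highest of the members there (edgeR, unadjusted p = 0.156). In FPKM it was at 307, 182 and 834 against 222, 221 and 168, so SUPV3L1 replicate 2 stood out in counts and not in FPKM. Across the 69 standard genes that share at most 5% of their coding bases, FPKM per count per kilobase was a median of 0.0891 (0.0649 to 0.141), while it was 7.45 for RPL36A and 11.1 for RPS10. Without the paralogs and the sharing genes, 69 of 69 log2 fold changes were below 0, at a median of −0.89, and 58 of 69 at a median of −0.12 without PNPT1 replicate 3.

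**Figure D4:**
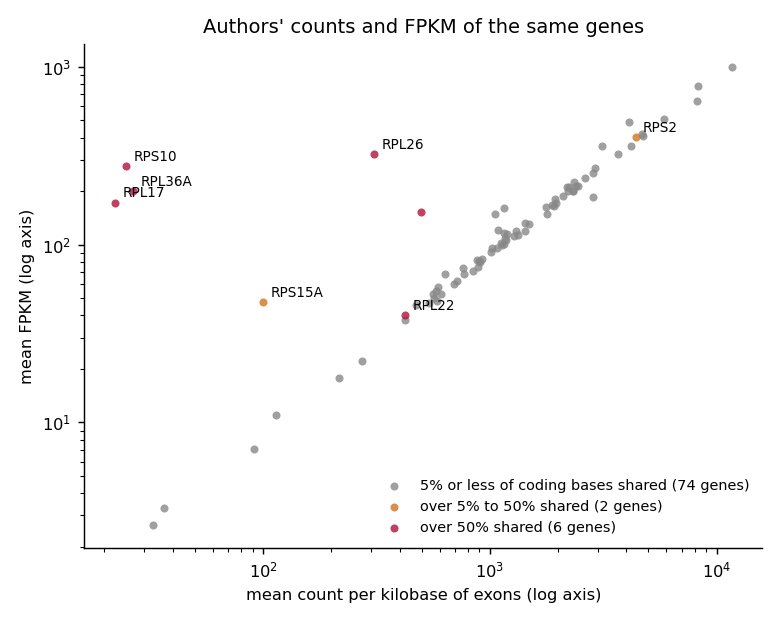
Mean FPKM against mean count per kilobase of exons (both log axes) over the 6 libraries for each ribosomal protein gene that passed the filter, coloured by the share of coding bases that another gene on the same strand also claims. Most genes lie on one line, and RPL17, RPL36A, RPS10, RPL26 and RPS15A lie above it, with mean FPKM of 47.4 to 322.

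The paralogs were scarcer than their parent genes and less uniform. RPL39L, best known from male germ cells, differs from RPL39 at 8 of 156 coding bases (94.9% identity, GENCODE 29 reference transcripts, reading the sense strand). The coding sequences are shown because reads that avoid the differing bases, in capitals, fit both genes.
RPL39: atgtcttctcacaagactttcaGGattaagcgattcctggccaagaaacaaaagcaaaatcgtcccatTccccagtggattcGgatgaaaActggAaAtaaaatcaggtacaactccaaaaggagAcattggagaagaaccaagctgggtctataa
RPL39L: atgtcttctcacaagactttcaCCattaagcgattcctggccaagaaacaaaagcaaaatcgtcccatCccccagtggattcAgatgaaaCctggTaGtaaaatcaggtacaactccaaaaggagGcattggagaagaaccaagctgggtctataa
RPL39 was at 113, 72.0 and 236 FPKM against 80.1, 67.1 and 70.8, and RPL39L at 7.61, 7.45 and 10.6 against 8.98, 3.17 and 4.75. Both were highest in PNPT1 replicate 3, by 5.31 and 2.61 times the mean of the others in CPM. How many reads of the pair were not unique is not known from the tables.

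The other pairs are less alike. RPL22L1, which can take the place of RPL22, has 64.9% of its aligned coding bases in common with it. It was at 15.2, 16.7 and 50.8 FPKM against 19.3, 15.3 and 15.9, and RPL22 at 49.8, 33.5 and 67.1 against 30.0, 33.3 and 26.0 FPKM. In CPM, which is not scaled by length, RPL22L1 was at 256 and RPL22 at 580 in PNPT1 replicate 3. RPL22L1 has the run of C and T in the window above. RPL26L1, with 84.2% of bases in common with RPL26, was at 1.98 to 5.96 FPKM on 25 to 53 counts, highest in PNPT1 replicate 3. RPS27L, a p53 target with 78.0% of bases in common with RPS27, stayed between 2.35 and 2.87 FPKM in all 6 libraries, while RPS27 ran from 221 to 586 FPKM. The annotated exons of RPS27L cover 9127 bases, against 1035 for RPS27, which widens this gap. In CPM, RPS27L was at 53.5 in PNPT1 replicate 3 and at 26.1 to 31.5 in the other libraries, and RPS27 at 290 to 1225. The 4 paralogs named so far had log2 fold changes of −1.03, −0.76, −0.70 and −0.25 (RPL22L1, RPL26L1, RPL39L, RPS27L), and of 0.31, 0.17, −0.15 and 0.11 without PNPT1 replicate 3.

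RPL7L1 had the opposite order of libraries. Its product takes part in assembly of the large subunit, and its coding sequence has 52.9% of aligned bases in common with that of RPL7. Its levels were 119.9, 219 and 44.8 CPM against 196, 212 and 176, lowest in PNPT1 replicate 3, where RPL7 had its highest value (4314 CPM, against 1224 to 2057). The log2 fold change, 0.60 with a standard error of 0.49 (edgeR, unadjusted p = 0.242), was the only one above 0 among the 82, and it was 0.20 without PNPT1 replicate 3. RPL10L, known from testis, had 0 counts and 0 FPKM in every library, RPL3L, known from muscle, 0 to 0.100 FPKM, and RPS10L, the annotated pseudogene, 0.237 to 1.06 FPKM. These 3 paralogs were the members that did not pass the filter on low counts.

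**Figure D5:**
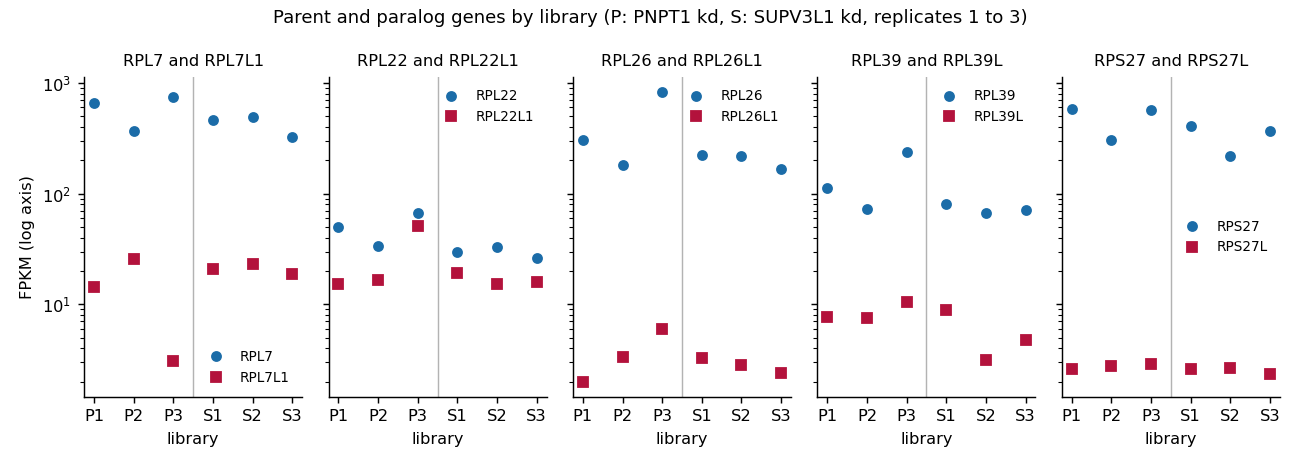
FPKM (log axis) of 5 parent genes (blue circles) and their paralogs (red squares) in each library, with PNPT1 knockdown left and SUPV3L1 knockdown right of the grey line. Every paralog lies below its parent in every library; in PNPT1 replicate 3 RPL7L1 is at its lowest, 3.08 FPKM, and RPL22L1 at its highest, 50.8 FPKM.

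The libraries differed in how the members' levels went with coding length. Over the 69 standard genes without large shared exons, a member's deviation from its own mean over the libraries correlated with its coding length at a Spearman rho of 0.49 in SUPV3L1 replicate 2 and −0.46 in SUPV3L1 replicate 3, and of −0.05 in SUPV3L1 replicate 1. The PNPT1 knockdown values were 0.25, −0.03 and −0.16. Over 10936 protein-coding genes the same rho was 0.17, 0.09 and −0.21 in PNPT1 replicates 1, 2 and 3, and 0.03, 0.07 and 0.03 in SUPV3L1 replicates 1, 2 and 3. These are descriptions across genes that share a library. RPL5, with a long coding sequence for the set (894 bases), was low in SUPV3L1 replicate 3 as given above, and RPS27, with 255 bases, was low in SUPV3L1 replicate 2, at 289.5 CPM against 509 and 495 in the other SUPV3L1 knockdown libraries.

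Other genes of the translation machinery show how far the pattern reached. Factors that assemble ribosomes, such as RNA polymerase I subunits and nucleolar proteins, had a median log2 fold change of 0.43 over 38 genes tested (29 above 0), 0.44 without PNPT1 replicate 3, and a median fold of 0.869 in PNPT1 replicate 3. None of the 38 passed the edgeR threshold, and the smallest p was that of POLR1B, a polymerase I subunit, at 14.8, 44.4 and 9.72 CPM against 55.7, 60.8 and 47.6 (log2 fold change 1.23, unadjusted p = 0.0327, adjusted p = 0.898). The medians of the ribosomal protein genes and of the factors that build the ribosome were thus on opposite sides of 0. The assembly list was mixed, however. In PNPT1 replicate 3, 7 of the 38 were higher by 2-fold or more (18.4%, against 14.1% of all genes). Lower by 2-fold or more were 9 (23.7%, against 27.8% of all genes). Among the 7 was nucleophosmin (NPM1), an abundant nucleolar protein, at 719, 503 and 2003 CPM against 499, 607 and 491.

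Other mRNAs of translation with a TOP start, such as elongation factors, had a median of −0.53 over 13 genes tested (13 below 0), −0.12 without PNPT1 replicate 3, and a median fold of 2.29 in PNPT1 replicate 3. EEF1A1, the elongation factor that brings aminoacyl-tRNA, was at 8381, 4590 and 14909.5 CPM against 6426, 6115 and 5102, and GNB2L1 (RACK1), a protein of the small subunit whose symbol lies outside the name rule, at 539.8, 426 and 1357 against 455, 436 and 315. The median was −0.16 for 32 initiation factors (1.45-fold in PNPT1 replicate 3), 0.12 for 12 genes that control translation of TOP mRNAs (0.893-fold), and −0.06 for 75 genes of the mitochondrial ribosome (1.46-fold). EIF3E, EIF3F, EIF3H and EIF4B are in both the TOP list and the initiation factor list, so these lists are not independent. Among 1003 pseudogenes named after ribosomal proteins, 48 passed the filter, with a median of −0.54 and a fold of 1.65 in PNPT1 replicate 3. Without PNPT1 replicate 3 the medians were 0.11 for the initiation factors (22 of 32 above 0), 0.11 for the genes that control TOP mRNAs, 0.18 for the mitochondrial ribosome (54 of 75 above 0) and −0.24 for the 57 pseudogenes that then passed the filter, so the sign turned for the initiation factors and the mitochondrial ribosome. These pseudogenes together held 0.344% to 0.641% as many counts as the members, lowest in PNPT1 replicate 3. None of the genes in these lists passed the edgeR threshold.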

How the data were processed

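RNA precipitated with J2 was sequenced in 6 libraries after a directional preparation, per the labels' protocols. The authors deposited whole-number read counts per gene for each library and 1 table of FPKM, fragment values per kilobase and per depth, for the same genes. Reads were processed against GRCh38 with StringTie 2.1.4, HTSeq, HISAT2 2.2.1 and SAMtools 1.14, per the submitters' processing notes. The annotation release, the strand setting and the tool behind the FPKM were not given in the sources used here. Alignments that were not unique gave no counts (65.7% to 80.1% of entries), so genes with near-identical copies can be undercounted.

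Members were found by symbol and joined by gene identifier. Members and lists were chosen with earlier results of these data known. Counts were tested over all genes with edgeR 4.0.16 (quasi-likelihood, TMM scaling, a filter with a minimum count of 10, Benjamini-Hochberg at 0.05), with DESeq2 1.42.0 and limma 3.58.1 on log2(FPKM + 0.1) as alternatives. Standard errors were computed from each fold change and F statistic. The scripts were tested on simulated data. With 3 libraries a group, p-values measure the spread between these libraries. Replicates were numbered in accession order. Shared exons and coding sequences come from GENCODE 29, in which all 85 genes were found, and start windows from RefSeq (GRCh38.p14).

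Members were named by rule: the 5 large and 5 small subunit genes with the highest FPKM, the 5 smallest p-values in each direction, groups without overlap, paralogs with parents, filtered members, extremes of FPKM per count, 8 genes of known role, and the 3 smallest p-values of each list. RPL34, RPS27A, RPL13, RPS28, RPS29, NPM1 and EEF1A1 were named after their values were seen. Some genes that the rule named are not reported here.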

Additional observations from a re-analysis of the deposited data

How the results depend on the processing

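The count of members past the threshold was 0 in the main analysis and under each alternative run (DESeq2, total-count scaling, other filters, removal of mitochondrial and clone-named genes, limma on FPKM, and each library left out). At an unadjusted p under 0.05, lower in SUPV3L1 knockdown, it was 6 with edgeR (2.39% of all genes), 23 with DESeq2 (1.86%), 42 without a filter (2.69%), 20 without PNPT1 replicate 1 (2.93%), 55 without PNPT1 replicate 2 (7.89%), and 0 without PNPT1 replicate 3 or without any 1 of the SUPV3L1 replicates. The median log2 fold change ran from −0.56 to −0.89 under the other settings, and from −1.22 to −0.0999 with 1 library left out, the latter without PNPT1 replicate 3. DESeq2 put the median of all genes at 0.10, so members lay further below it than their own value of −0.89 shows. An alternative added after seeing the data, without paralogs and genes sharing over 5% of coding bases, gave −0.89.

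The difference in share, −1.63 points, was −0.00864 points in FPKM, and −2.56 to −0.686 with 1 library left out. The difference in the ratio of the subunits, −0.0228, was 0.0515 as a difference of median log2 CPM, and −0.0571 to 0.0229 with 1 library left out, 0.0206 without SUPV3L1 replicate 3. Of 426 values of single genes under alternatives 412 kept their direction and 14 did not, 9 of them without PNPT1 replicate 3. With total-count scaling RPL26 was 0.0704 and RPL36A 0.0270; RPS18 was 0.00310 and 0.00306 in FPKM with a pseudocount of 0.1 and 1. With 1 library left out the ranges were −1.44 to 0.311 for RPL22L1, −0.592 to 0.570 for RPL26, −1.18 to 0.166 for RPL26L1, −0.356 to 0.174 for RPL36A, −0.895 to 0.0180 for RPL8, −0.858 to 0.375 for RPS10, −1.03 to 0.0242 for RPS12, −0.757 to 0.0127 for RPS2 and −0.455 to 0.108 for RPS27L. The cause was not tested. Where an arm kept 2 libraries, the fit pooled the spread over both groups. Depth limits RPL17, RPL36A, RPS10 and RPL26L1, at 25 to 153 counts a library. No paired analysis was possible because the replicate numbers follow accession order and link no libraries.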
